A study of Homo sapiens with 4 samples.

Results

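The genes described here run mitosis, the step in which a cell condenses its copied chromosomes, attaches them to a spindle of microtubules, pulls them apart and divides. They are 50 named genes, chosen by name with earlier results of these data known. Every probe that the array's annotation gives to one of them was taken. That gave 80 probes of the 47228 on the array, and 50 of the 20045 genes that the array names. Their values were read in macrophages made from THP-1, an established human line from an acute monocytic leukemia that grows as dividing monocyte-like cells. The groups were M0 (unpolarised macrophages), M1 (given IFN-r/LPS, an interferon named as labelled, and bacterial lipopolysaccharide), M2a (given IL-4) and M2c (given IL-10). All 4 groups come from that line, each is read from 1 array of total RNA, and neither doses, times nor the agent that turned the line into M0 cells are stated in the labels.

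Entry into mitosis is driven by the kinase CDK1, which needs a cyclin partner. Condensins and topoisomerase II compact the chromosomes, kinetochores built on the centromere hold the spindle fibres, and the spindle assembly checkpoint delays division until every chromosome is attached. The anaphase-promoting complex then marks securin and the cyclins for destruction, sister chromatids part, and the cell is pinched apart by cytokinesis. Most of these genes are copied into RNA late in the cell cycle, so in bulk RNA their level tracks how many cells are dividing. Monocytes commonly leave the cell cycle as they become macrophages. In these arrays fewer dividing cells and less mitotic RNA per dividing cell cannot be told apart.

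Values are normalized log2 intensities, and a log2 difference of 1 is a 2-fold change. A probe was called detected on an array where its detection p-value, which sets its intensity against that of control beads with no target, was below 0.01. A gene was called higher or lower between 2 arrays when it differed by at least 2-fold and was detected on at least 1 of them, and "rose" and "fell" are used only of genes past that rule. Every group being a lone array, differences have no replicate check and were not tested, and a group's effect and its array's cannot be told apart. Where only 1 of 2 arrays detected a gene, the fold is a lower bound ("at least") that holds for this normalization. Each gene is read through its brightest probe, and levels are compared between arrays for the same gene, never between genes.

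The labels were checked against marker genes. All 11 macrophage and monocyte markers on the array, CD14, CD68 and CSF1R among them, were detected on each of the 4 arrays, with summed raw intensities of 78814.3 on M0, 61413.5 on M1, 81429.2 on M2a and 64246.1 on M2c, and on M1 4 of them fell and 2 rose. Of 15 markers of T cells, B cells, epithelium, endothelium, fibroblasts and red cells, the M0 array detected 1 (CD79A), the M1 array 1 (CD2) and the M2a and M2c arrays 0, with summed raw intensities from 1573.2 (M1) to 1631.4 (M0). The interferon-induced chemokine gene CXCL9 and the tryptophan-degrading enzyme gene IDO1 were detected on the M1 array alone, and the IL-4 feedback gene CISH on the M2a array alone. For IL-10 the markers were mixed: the selenoprotein gene SELENOP was highest on M2c (7.64, against 5.54 on M0), as was the complement gene C1QA (8.70, against 7.16 on M0 and 8.38 on M1), but C1QB and C1QC were higher on M1 (12.70 and 12.03) than on M2c (11.12 and 11.74). TGM2, listed for IL-4, read 6.51 on M0, 10.99 on M1 and 13.00 on M2a. The M1 array was the dimmest, with 27.4% of probes detected and a median raw intensity of 102.9, against 29.0% to 31.4% and 110.4 to 110.9 on the others. Over all tested genes the median M1 minus M0 log2 difference was -0.18, and the part of that dimness in the results below was not tested.

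Mitotic genes were detected on all 4 arrays and were lowest on M1. Of the 50 genes, 49 were detected on M0, 49 on M2c, 48 on M2a and 37 on M1. The condensin subunit gene NCAPH was detected on no array and drops out of every count below, which leaves 49. For all 49 the M1 array held the lowest of the 4 values. The M2a array held the second lowest for 43 of them, and the highest value lay on M2c for 24, on M0 for 22 and on M2a for 3.

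**Figure D1:**
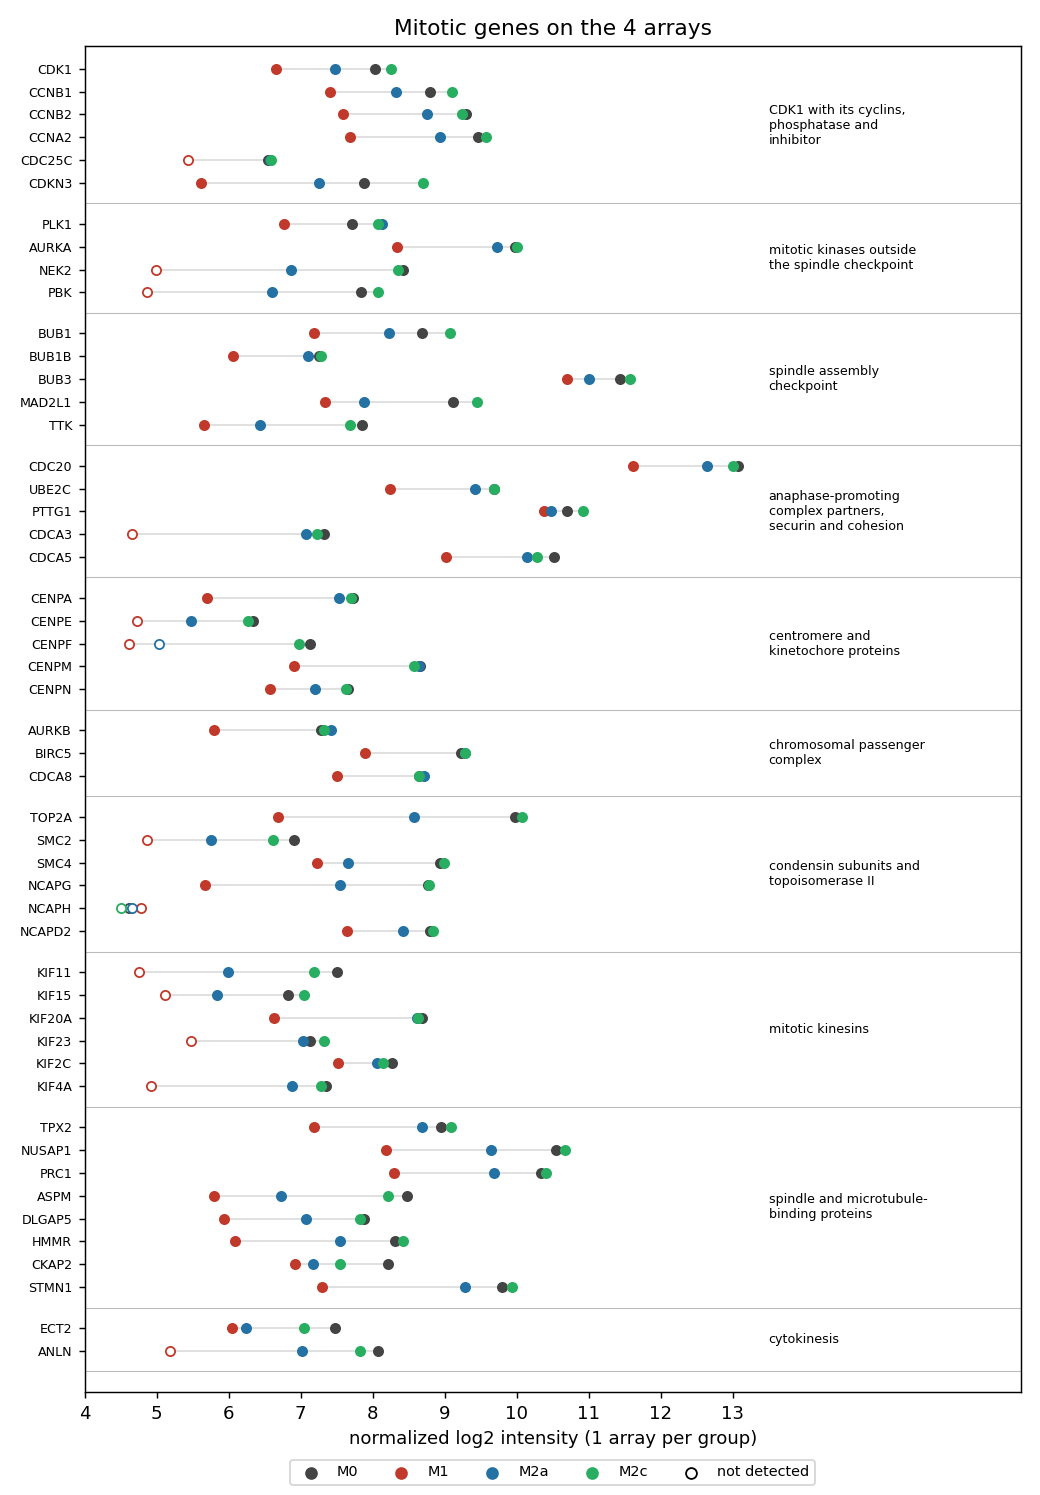
Normalized log2 intensity of each mitotic gene (rows, grouped by role) on the M0, M1, M2a and M2c arrays (colours, 1 array per group, no error bars possible). Open circles are values not detected. In each detected row the M1 point lies furthest left, and values should be compared within a row only.

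Between the M1 and M0 arrays, 45 of the 49 genes fell and 0 rose, where 19.0% of all 9986 tested genes were lower and 15.0% higher (35.0% and 8.45% with arrays scaled to their median over all probes). The median log2 difference of the mitotic genes was -1.71, and the differences ran from -3.43 (NEK2) to -0.33 (PTTG1). With undetected M1 values taken as read, 19 genes differed by at least 4-fold. With the 12 genes that M1 did not detect set at their bounds, 43 still passed 2-fold and the median was -1.64. Those 12 were CDC25C, NEK2, PBK, CDCA3, CENPE, CENPF, SMC2, KIF11, KIF15, KIF23, KIF4A and ANLN.

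**Figure D2:**
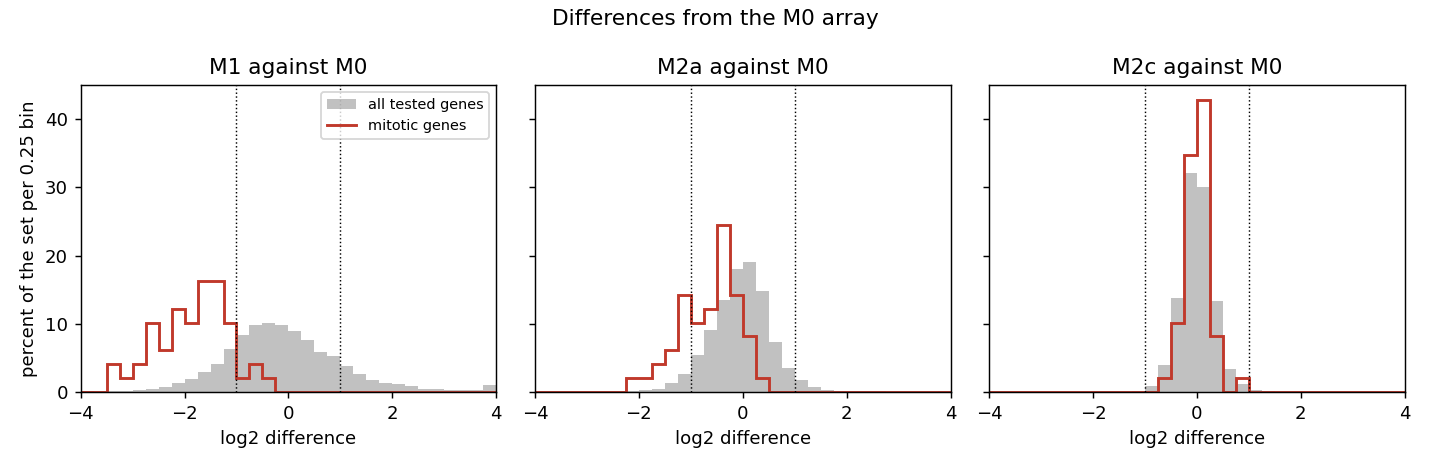
Distribution of log2 differences from the M0 array, as the percent of each set per bin of 0.25, for all tested genes (grey, filled) and the 49 mitotic genes (red line). Dotted lines mark 2-fold. The mitotic genes lie almost wholly below the left line for M1 (45 of 49), in part for M2a (14 of 49) and not for M2c (0 of 49).

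The CDK1 group fell throughout, 6 of 6, with a median of -1.56. CCNA2, the cyclin that partners CDK1 before mitosis, read 9.46 on M0, 7.69 on M1, 8.93 on M2a and 9.58 on M2c. CCNB2, a B-type mitotic cyclin, read 9.29, 7.59, 8.75 and 9.24 in the same order. CDKN3, a phosphatase that acts on cyclin-dependent kinases, read 7.88, 5.62, 7.26 and 8.70. The M1 value was the lowest in each case and the M2a value came next. CCNA2 was 3.40-fold lower on M1 than on M0, CCNB2 3.26-fold and CDKN3 4.79-fold. CDK1 itself fell 2.61-fold, from 8.03 to 6.65, and CCNB1, the other B-type cyclin, 2.65-fold. CDC25C, the phosphatase that switches CDK1 on, was at least 1.91-fold lower. Its call rests on which probe is read, since of its 2 other probes the first gave -1.30 and the second 0.21, and the second was detected on all 4 arrays.

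Among the 4 mitotic kinases outside the checkpoint, 3 fell. NEK2 (chr1:211658256-211675621 on GRCh38.p14), a kinase of the centrosome, read 8.42 on M0, 4.99 on M1, 6.87 on M2a and 8.35 on M2c, and its M1 value was not detected. PBK, a kinase active in mitosis, read 7.84, 4.86, 6.60 and 8.08, again undetected on M1. AURKA, the Aurora kinase of spindle poles, read 9.98, 8.34, 9.72 and 10.0. On M1 NEK2 was at least 7.01-fold lower than on M0, PBK at least 4.69-fold and AURKA 3.11-fold. PLK1, the Polo-like kinase needed for spindle assembly, missed the threshold on M1 (-0.94, from 7.71 to 6.77) and was the gene with the highest M2a minus M0 difference (0.42).

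Promoter sequences of 5 of these genes are shown as examples. TOP2A and NEK2 had the deepest M1 falls in their role groups, CCNB2 is a cyclin, PLK1 missed the threshold on M1 and KIF2C did as well. Each is the 250 bases before the RefSeq gene start on GRCh38.p14, read on the gene's own strand. Capitals mark CHR matches (TTTGAA or TTCGAA, the cell cycle homology region element, either strand) and CCAAT boxes (CCAAT, either strand), which can share letters. The windows are chr17:40417897-40418146, minus strand for TOP2A, chr1:211675622-211675871, minus strand for NEK2, chr15:59104896-59105145, plus strand for CCNB2, chr16:23678639-23678888, plus strand for PLK1 and chr1:44739587-44739836, plus strand for KIF2C.
TOP2A: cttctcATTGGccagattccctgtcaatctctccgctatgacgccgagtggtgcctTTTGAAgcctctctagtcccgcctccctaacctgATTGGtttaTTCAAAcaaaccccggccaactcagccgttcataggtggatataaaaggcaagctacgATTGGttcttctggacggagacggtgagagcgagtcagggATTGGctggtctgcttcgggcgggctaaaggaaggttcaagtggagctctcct
NEK2: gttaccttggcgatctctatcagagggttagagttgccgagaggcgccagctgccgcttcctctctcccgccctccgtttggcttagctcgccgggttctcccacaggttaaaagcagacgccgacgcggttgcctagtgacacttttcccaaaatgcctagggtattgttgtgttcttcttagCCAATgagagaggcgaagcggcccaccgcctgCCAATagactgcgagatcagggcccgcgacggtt
CCNB2: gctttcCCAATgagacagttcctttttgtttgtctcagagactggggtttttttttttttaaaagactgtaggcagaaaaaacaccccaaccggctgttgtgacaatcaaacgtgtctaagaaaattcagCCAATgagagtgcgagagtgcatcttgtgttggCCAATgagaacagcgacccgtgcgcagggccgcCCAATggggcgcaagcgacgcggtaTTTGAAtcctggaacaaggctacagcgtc
PLK1: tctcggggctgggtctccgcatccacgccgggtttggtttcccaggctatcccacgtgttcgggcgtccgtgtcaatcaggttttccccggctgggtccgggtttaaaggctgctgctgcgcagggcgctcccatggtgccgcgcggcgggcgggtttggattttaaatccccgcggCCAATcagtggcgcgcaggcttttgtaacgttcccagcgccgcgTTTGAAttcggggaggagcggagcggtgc
KIF2C: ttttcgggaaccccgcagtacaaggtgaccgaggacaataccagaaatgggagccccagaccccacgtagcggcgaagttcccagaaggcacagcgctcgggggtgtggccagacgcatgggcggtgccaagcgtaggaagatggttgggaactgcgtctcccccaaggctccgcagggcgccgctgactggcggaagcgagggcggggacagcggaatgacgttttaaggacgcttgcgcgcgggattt

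The TOP2A window holds 4 CCAAT boxes and 2 CHR matches, CCNB2 4 and 1, PLK1 1 and 1, NEK2 2 and 0, and KIF2C 0 of either. PTTG1, with the smallest M1 difference (-0.33) and a window not printed here, holds 3 and 0. Of the 42 mitotic genes with a promoter entry, 22 (52.4%) held TTTGAA or its reverse complement TTCAAA, against 13.6% of 27305 promoters of the same length and 8.91% of the 8168 that belong to genes tested between M1 and M0. CCAAT was in 31 (73.8%), against 33.0% and 36.1%, and at least 2 copies were in 18 (42.9%), against 10.0% of all promoters. TTCGAA was in 1 mitotic gene, CDCA5. The E2F-type letters TTTGGCGC were in 3 (7.14%, against 0.553% of all promoters and 1.0% of those of tested genes). TTTCCCGC was in 2 (4.76%, against 1.42% and 2.29%). The TATA letters TATAAA were in 3 (7.14%), a share between the 11.1% of all promoters and the 5.69% of those of tested genes. A match is a stretch of letters and not a measured binding site, and other letter forms of the CHR were not searched. Among detected genes with a promoter entry, 22 of 23 with a CHR match in either form fell on M1 (median -1.71) and 16 of 18 without one (median -1.69). On M2a 7 of the 23 fell (median -0.62) and 5 of the 18 (median -0.49), and neither difference was tested. The windows of SMC2, CKAP2, STMN1 and AURKB, all without a CHR match, lie inside the gene's genomic span. Sequence before the outermost start of these genes was not searched.

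The spindle assembly checkpoint, which holds back division until chromosomes are attached, had 4 of 5 genes lower on M1 (median -1.51). TTK, the kinase that starts checkpoint signalling at kinetochores, read 7.85 on M0, 5.66 on M1, 6.43 on M2a and 7.69 on M2c. MAD2L1, the MAD2 protein that restrains CDC20, read 9.11, 7.34, 7.88 and 9.45. BUB1, a kinetochore kinase, read 8.69, 7.18, 8.22 and 9.07. M1 was lowest for all 3, and M2a lay closer to M1 than to M0 for TTK and MAD2L1. The M1 falls were 4.55-fold for TTK, 3.41-fold for MAD2L1 and 2.85-fold for BUB1. BUB1B fell 2.30-fold, while BUB3, which also works outside mitosis, read 11.43 and 10.70 on M0 and M1 and did not pass on any of its 4 probes (-0.73, -0.52, -0.46 and -0.14).

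Partners of the anaphase-promoting complex and of cohesion had 4 of 5 lower (median -1.46). CDC20, the activator of the complex in mitosis, read 13.07 on M0, 11.61 on M1, 12.65 on M2a and 13.01 on M2c. CDCA5, known as sororin, which stabilises cohesion, read 10.52, 9.02, 10.15 and 10.28. CDCA3 read 7.32, 4.66, 7.07 and 7.23, with M1 undetected. For these genes M0, M2a and M2c lay close together and M1 apart. CDC20 was 2.75-fold lower on M1 than on M0, CDCA5 2.83-fold, CDCA3 at least 3.26-fold, and UBE2C, the ubiquitin-conjugating enzyme of the complex, 2.73-fold. With arrays scaled to a common median CDC20 was at -0.93 and no longer passed. PTTG1, securin, which guards the enzyme that cuts cohesin, was nearly level across the arrays at 10.70, 10.38, 10.48 and 10.92.

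All 5 centromere genes fell on M1 (median -1.76). CENPF, a large kinetochore protein, read 7.13 on M0, 4.62 on M1, 5.03 on M2a and 6.98 on M2c, and neither M1 nor M2a detected it. CENPA, the histone H3 variant that marks centromeres, read 7.72, 5.70, 7.53 and 7.70. CENPM, of the inner kinetochore, read 8.66, 6.90, 8.65 and 8.57. CENPA and CENPM were low on M1 alone, whereas CENPF was low on both M1 and M2a. CENPF was at least 2.85-fold lower on M1 than on M0, CENPA 4.05-fold and CENPM 3.39-fold. CENPN fell 2.11-fold, and CENPE, the kinetochore kinesin, was at least 1.66-fold lower.

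The 3 genes of the chromosomal passenger complex, which corrects wrong attachments, fell together on M1 (median -1.33). AURKB, its kinase, read 7.28 on M0, 5.79 on M1, 7.42 on M2a and 7.32 on M2c. BIRC5, survivin, read 9.23, 7.89, 9.28 and 9.28, and CDCA8, borealin, read 8.65, 7.50, 8.71 and 8.64. The M0, M2a and M2c values lay within 0.14 of each other for each of the 3 genes. The M1 falls were 2.81-fold for AURKB, 2.52-fold for BIRC5 and 2.22-fold for CDCA8. In the authors' deposited normalized table AURKB (-0.77) and CDCA8 (-0.87) did not reach 2-fold.

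Of the chromosome compaction genes, 5 of 5 detected fell on M1, with a median of -2.03. TOP2A (chr17:40388525-40417896 on GRCh38.p14), topoisomerase II alpha, which untangles DNA, read 9.98 on M0, 6.69 on M1, 8.58 on M2a and 10.08 on M2c. Its raw intensities were 1134.6, 151.8, 486.4 and 1285.7. NCAPG (chr4:17810979-17844865), a condensin subunit, read 8.77, 5.67, 7.54 and 8.78. For both genes M0 and M2c were nearly level, M2a was lower and M1 far lower. SMC4, a condensin ATPase, read 8.93, 7.22, 7.66 and 8.99, and its partner SMC2 read 6.90, 4.87, 5.76 and 6.61 with M1 undetected. TOP2A was 9.79-fold lower on M1 than on M0, the largest fall among genes detected on both arrays, NCAPG 8.58-fold, SMC4 3.27-fold and SMC2 at least 2.43-fold. SMC2 was at -0.85 in the authors' deposited normalized table, and NCAPD2 fell 2.22-fold.

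Of the 6 kinesins, motors that slide and shorten spindle microtubules, 5 fell (median -1.89). KIF11, which pushes spindle poles apart, read 7.51 on M0, 4.76 on M1, 5.99 on M2a and 7.19 on M2c. KIF4A, which organises the central spindle, read 7.35, 4.92, 6.88 and 7.28. KIF20A, a cytokinesis kinesin, read 8.69, 6.63, 8.62 and 8.63. M1 was the lowest for each, and M2a was at least 2-fold below M0 for KIF11 alone. KIF11 was at least 3.71-fold lower on M1 than on M0, KIF4A at least 3.34-fold and KIF20A 4.16-fold. KIF15, which backs up KIF11, read 6.83, 5.12, 5.83 and 7.04 and was at least 2.33-fold lower on M1, but at -0.73 in the authors' deposited normalized table. KIF23 was at least 2.86-fold lower, and KIF2C, a microtubule depolymerase, missed the threshold at -0.75.

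All 8 spindle and microtubule-binding genes fell on M1 (median -2.13), and so did the cytokinesis genes ECT2 and ANLN. ASPM, a spindle pole protein, read 8.48 on M0, 5.79 on M1, 6.73 on M2a and 8.21 on M2c. STMN1, stathmin, which destabilises microtubules, read 9.79, 7.29, 9.28 and 9.93. NUSAP1, which bundles spindle microtubules, read 10.55, 8.19, 9.64 and 10.67. STMN1 was low on M1 alone, while ASPM was low on M2a too. The M1 falls were 6.46-fold for ASPM, 5.67-fold for STMN1 and 5.15-fold for NUSAP1. CKAP2, a microtubule-associated protein, read 8.21, 6.92, 7.17 and 7.55. ECT2, which activates RhoA for cleavage, read 7.48, 6.05, 6.24 and 7.05, and ANLN, the scaffold of the cleavage furrow, read 8.08, 5.19, 7.02 and 7.83. CKAP2 and ECT2 were about as low on M2a as on M1. CKAP2 fell 2.44-fold on M1, ECT2 2.70-fold and ANLN at least 5.52-fold. In the authors' deposited normalized table CKAP2 (-0.88) and ECT2 (-0.80) did not pass. TPX2, PRC1, DLGAP5 and HMMR, spindle proteins all, fell 3.40-fold, 4.13-fold, 3.84-fold and 4.64-fold.

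On the IL-4 array fewer of the genes were lower. Between M2a and M0, 14 of 49 mitotic genes fell and 0 rose, where 5.04% of 9860 tested genes were lower and 4.09% higher. The median was -0.52 against -0.01 for all tested genes, and 44 of the 49 lay below 0. CENPF was at least 3.42-fold lower, and ASPM (3.36-fold), NEK2 (2.93-fold), KIF11 (2.86-fold), TTK (2.68-fold) and TOP2A (2.65-fold) followed. SMC4, PBK, ECT2, MAD2L1, NCAPG, SMC2, ANLN and CKAP2 fell by 2.05-fold to 2.41-fold, and KIF15, at 6.83 on M0 and 5.83 on M2a, came just short of the rule. These calls depend on how background is treated: 3 genes, NEK2, TOP2A and ASPM, passed in the authors' deposited normalized table, where 1.27% of all tested genes were lower and the mitotic median was -0.41.

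The M2a falls were spread unevenly over the role groups. Compaction genes had 4 of 5 lower (median -1.23) and cytokinesis 2 of 2, the checkpoint 2 of 5 and the other mitotic kinases 2 of 4. Among spindle genes 2 of 8 passed, among kinesins 1 of 6 and among centromere genes 1 of 5. The CDK1 group had 0 of 6 lower (median -0.53), the anaphase partners 0 of 5 (-0.27) and the passenger complex 0 of 3 (0.06). Whether the groups differ was not tested. The M2a and M1 comparisons share the M0 array.

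Gene length went with the M2a difference. Over the 49 detected mitotic genes the rank correlation of genomic length on GRCh38.p14 with the M2a minus M0 difference was -0.48, and over 9856 tested genes it was -0.19. It is given as a description, since all points share the same pair of arrays. The 24 shorter genes, up to 25.9 kb, had a median of -0.40 and 3 falls (NEK2, MAD2L1 and CKAP2). The 25 longer genes, from 27.9 kb, had a median of -0.92 and 11 falls. The same correlation was -0.28 for M1 minus M0, -0.25 for M2c minus M0 and -0.43 for M2a minus M2c. Over all tested genes these were -0.12, 0.1 and -0.22. For M2c minus M0 the shorter and longer mitotic genes had medians of 0.01 and 0.02. Mean level over the 4 arrays also went with the M2a difference, at a rank correlation of 0.26. The part of either in the result was not tested.

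**Figure D3:**
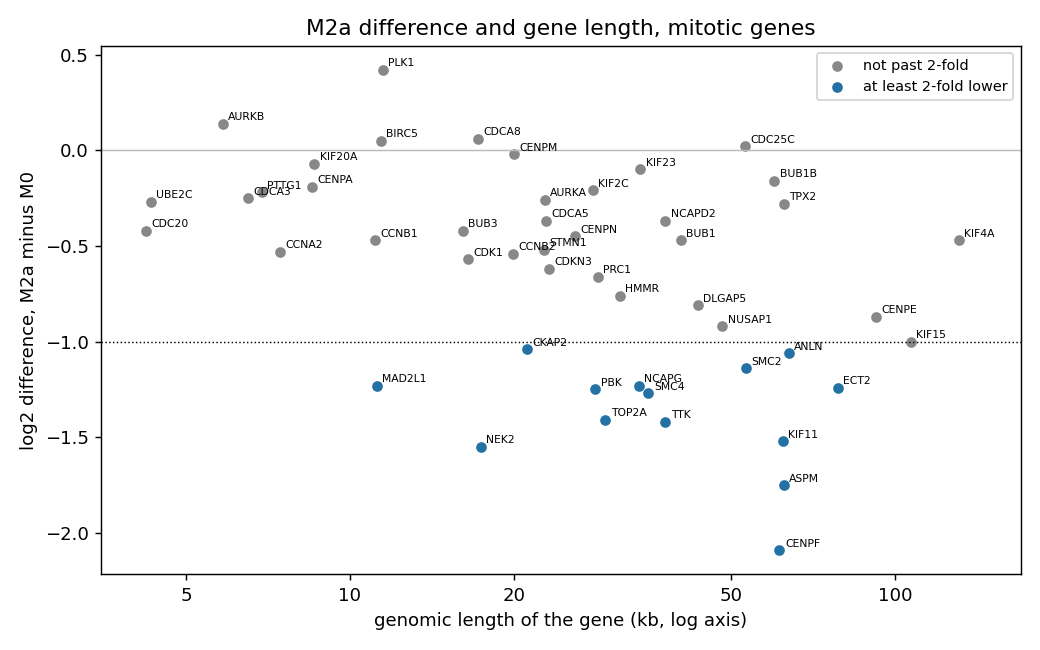
Genomic length (kb, log axis) against the log2 difference between the M2a and M0 arrays for each of the 49 detected mitotic genes. Blue points are the 14 genes at least 2-fold lower on M2a, and the dotted line marks 2-fold. Of the 14, 11 lie among the 25 longer genes, while short genes such as AURKB and BIRC5 lie near 0.

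On the IL-10 array no mitotic gene passed the rule. Between M2c and M0, 0 of 49 genes passed in either direction, where 0.448% of 9604 tested genes were lower and 0.677% higher. The median was 0.02, with 26 genes above and 23 below 0. The extremes were CDKN3 at 0.82 and CKAP2 at -0.66, and the second probe of CKAP2 gave 0.07. With 1 array on each side, a difference of this size cannot be set against replicate spread.

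Set against the other polarised arrays, M1 was again the low one. Between M1 and M2c 44 of 49 genes were lower and 0 higher (21.4% and 16.3% of all tested genes), with a median of -1.86. With the 12 genes that M1 did not detect set at their bounds, 41 were lower and the median was -1.66. The authors' deposited normalized table gave 33 lower and a median of -1.14, where 9.44% of all tested genes were lower. TOP2A, 10.4-fold, NCAPG, 8.65-fold, and CDKN3, 8.46-fold, differed the most among genes detected on both. Between M1 and M2a 32 of 48 were lower and 0 higher (18.0% and 15.7%), with a median of -1.19. STMN1 and KIF20A (both 3.96-fold) led among genes detected on both. With 10 genes set at their bounds and 1 without a fold, 29 were lower and the median was -1.15. That count was 12 in the authors' deposited normalized table. Of the genes lower on M2a than on M0, ECT2 (-0.20), CKAP2 (-0.25), SMC4 (-0.44) and MAD2L1 (-0.54) lay close together on M1 and M2a, whereas TOP2A (-1.88) and NCAPG (-1.87) were lower still on M1.

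Between M2a and M2c, a pair that holds neither M0 nor M1, 13 of 49 genes were lower on M2a and 0 higher, where 6.98% of all tested genes were lower and 4.81% higher. CENPF was at least 3.09-fold lower, MAD2L1 2.97-fold, TOP2A 2.83-fold and NEK2, PBK and ASPM 2.79-fold each. CDKN3, SMC4, TTK, NCAPG, KIF15, KIF11 and NUSAP1 fell by 2.04-fold to 2.72-fold. The median was -0.64 against 0.02 for all tested genes. The count was 5 in the authors' deposited normalized table, where 1.78% of all tested genes were lower.

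Other probes of the same genes gave a second reading of the same RNA, though not a replicate. Of the 50 genes, 21 had more than 1 probe. Between M1 and M0, 15 called genes had another detected probe, and the mean of those probes had the same sign for 15 and passed 2-fold for 13. Over single probes, 59 of 70 tested were lower and 0 higher, with a median of -1.59. The 70 include the brightest probes, already counted above. The share of all probes on the array past the same rule was not computed. Between M2a and M0, 5 called genes had another detected probe, with the same sign for 5 and 2-fold for 4. The exception was NEK2, at -0.67 on its other probe. Between M2a and M2c 3 called genes had one, with the same sign for 3 and 2-fold for 0. They were MAD2L1 (-0.58), KIF11 (-0.82) and NUSAP1 (-0.93). Between M1 and M2c the sign was the same for 12 of 12 and 2-fold was passed for 10. For M1 and M2a these counts were 9 of 9 and 6. Readings could differ widely: NEK2 gave -3.43 and -1.05 between M1 and M0, and DLGAP5 gave -1.94 and -3.26.

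**Figure D4:**
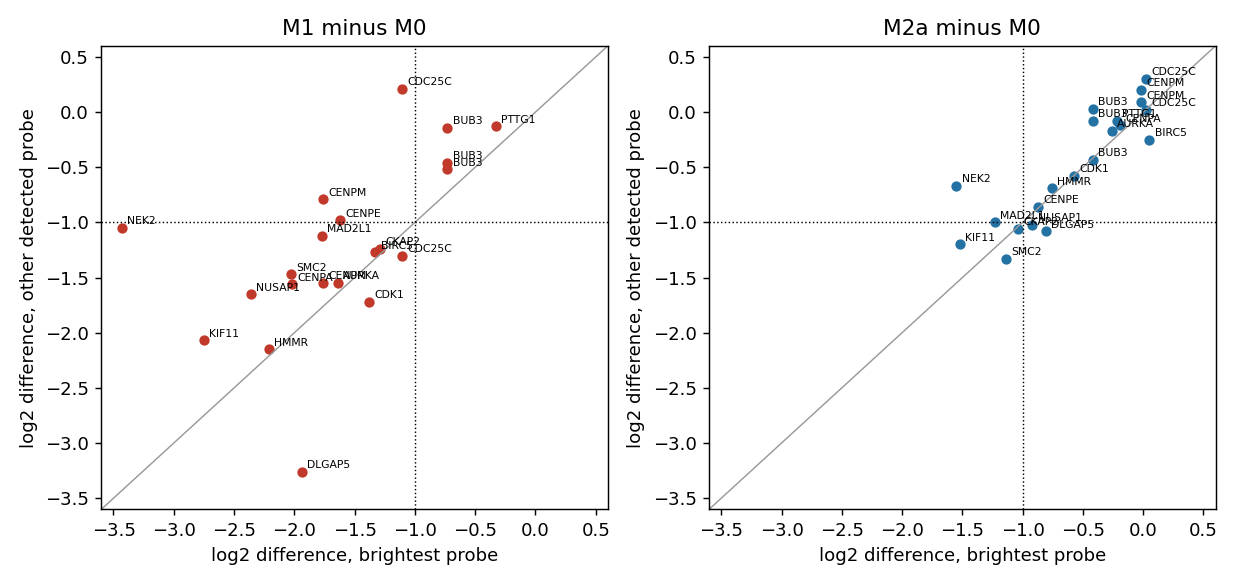
Log2 differences of the brightest probe (horizontal) and of each other detected probe (vertical) of the same mitotic gene, for M1 minus M0 (left) and M2a minus M0 (right). The diagonal marks equal readings and dotted lines 2-fold lower. Most M1 points lie below -1 on both axes. NEK2, DLGAP5 and a CDC25C probe at 0.21 lie far from the diagonal.

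Genes of the same processes outside the 50 were mostly lower on M1 as well. Over all tested genes 19.0% were lower on M1 than on M0 and 15.0% higher. With arrays scaled to their median over all probes these shares were 35.0% and 8.45%, a setting in which the lists were not read. Of 32 detected kinetochore and centromere genes 20 fell and 0 rose (median -1.17), HJURP, the chaperone that loads CENPA, at least 6.07-fold and SPDL1, a kinetochore recruiter of dynein, at least 3.38-fold. Of 35 further spindle, kinesin and mitotic entry genes 24 fell and 2 rose (median -1.35), with the condensin II subunit NCAPG2 at least 4.27-fold and CKAP2L at least 2.70-fold lower. The 2 that rose were MASTL, a kinase that restrains mitotic phosphatases (1.19), and CDC25B, a CDK-activating phosphatase (1.14). Both were named after their values were seen. Of 25 DNA replication genes 21 fell (median -1.66), RFC4, a clamp loader subunit, 5.16-fold and the polymerase gene POLA1 at least 4.10-fold. Counts and medians of these lists take undetected M1 values as read and were not recounted at the bounds. Some genes counted as lower did not reach 2-fold at their bounds, such as NUF2 (at least 1.69-fold) and MKI67 (at least 1.04-fold).

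The remaining lists hold genes that cells also use outside mitosis. Between M1 and M0 19.0% of all tested genes were lower and 15.0% higher, and between M2a and M0 5.04% were lower. With arrays scaled to their median over all probes 35.0% were lower on M1 than on M0. Whether the remaining lists differ from those shares was not tested. Their counts and medians take undetected values as read and were not recounted at the bounds. Of 13 anaphase-promoting complex genes 4 fell on M1 (median -0.65), ANAPC4 3.13-fold and ANAPC7 at least 1.37-fold. Of 10 cohesin genes, for the rings that hold sister chromatids, 5 fell on M1 (median -0.96) and 5 on M2a (median -0.99). WAPL, which releases cohesin, was at least 1.94-fold lower on M1 and NIPBL, which loads it, at least 1.84-fold. Neither reached 2-fold at its M1 bound, whereas NIPBL was at least 2.21-fold lower on M2a. Of 18 regulators of mitotic transcription 7 fell and 1 rose on M1 (median -0.61). LIN9, of the complex that binds CHR elements, was at least 2.00-fold lower and TFDP1, the E2F partner, fell 2.81-fold. Of the 7, LIN54 was at least 1.84-fold lower and E2F7 at least 1.79-fold, and RBL1 gave no bound. The gene that rose was CDKN1A, the p21 inhibitor of cyclin-dependent kinases, at 12.30 on M0 and 13.38 on M1, a 2.12-fold difference, and FOXM1, the mitotic transcription factor, fell 2.31-fold. CDKN1A and FOXM1 were named after their values were seen.

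On M2a 3 of 32 kinetochore genes, 2 of 35 spindle and entry genes, 0 of 25 replication genes and 0 of 13 anaphase-promoting complex genes fell, where 5.04% of all tested genes were lower. Of 18 regulators 1 fell on M2a, LIN9, at least 2.40-fold, named for its M1 change. In all of these lists 0 genes rose on M2a. The replication genes had a median of -0.22 on M2a and 0.26 on M2c. On M2c 0 genes of these lists, of the cohesin list or of the regulator list passed in either direction.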

How the data were processed

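Total RNA of 4 THP-1 macrophage cultures, 1 array per group, was read on Illumina bead arrays (TargetAmp-Nano labelling, per the labels' protocols). The authors deposited intensity tables, non-normalized and normalized, with a detection p-value beside each intensity, made with GenomeStudio per the submitters' processing notes (version not given in the sources used here). The series value table held the normalized intensities, with 0 cells that differed. From the non-normalized intensities, normexp background correction with detection p-values (offset 16), quantile normalization and log2 were run in limma 3.58.1 (R 4.3.3), with tables joined in Python 3.11.15. Symbols were updated through Entrez identifiers for 30072 of 30111 probes with 1 symbol, and the probe with the highest mean stood for each gene. Promoter sequences are from RefSeq (GRCh38.p14), first listed entry per gene. Every gene was accounted for, and values on every array are given for the 3 largest M1 changes per role and for each gene past 2-fold between arrays other than M1. In other lists the 2 largest changes are named. The procedure was tested on simulated arrays, all made from the M0 values, with bright genes changed and no array dimmed. That setting does not cover genes near background or a dim array. The members and lists were chosen with earlier results of these data known. The number of arrays limits the precision. No replicate exists, so no test was made.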

Additional observations from a re-analysis of the deposited data

How the results depend on the processing

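The counts and medians over all mitotic genes, and the named genes' differences, were recomputed per pair of arrays in the authors' table, without background correction, with an offset of 50, with common-median scaling over probes detected on all arrays, without the M1 array (for pairs that do not hold it), with a detection limit of 0.05, for genes detected on both arrays and with the mean of a gene's detected probes. Role groups, other lists, promoter groups and length were read under 1 setting. In every setting run, 0 mitotic genes were higher in any pair as ordered here. In those above 32 to 45 were lower on M1 than on M0, where 7.96% to 18.1% of all tested genes were lower. Without background correction and in the authors' table alike, genes lower were 3 for M2a against M0, 5 for M2a against M2c and 12 for M1 against M2a. Shares over all tested genes were 1.27%, 1.78% and 7.52% in the authors' table, and 1.27%, 1.76% and 7.53% without background correction. Medians there were -1.20 for M1 against M0, -0.81 for M1 against M2a, -1.14 for M1 against M2c, -0.41 for M2a against M0 and -0.42 for M2a against M2c. An offset of 50 gave -1.51, -1.06 and -1.49 for M1 against M0, M2a and M2c. For M1 against M2c the median was -1.66 with common-median scaling and -1.67 for genes detected on both arrays, and common-median scaling gave -0.53 for M2a against M2c. Scaling over all probes, added after the data were seen, gave -2.37 for M1 against M0, -1.77 against M2a and -2.43 against M2c. All tested genes were then at -0.66, -0.59 and -0.69. Between M1 and M0 47 mitotic genes were then lower, as were 35.0% of all tested genes. Other medians moved by at most 0.1. Why these values moved was not tested. Over detected probes the M1 against M0 median was -1.63, with all tested genes at 0.08. Signal near background limits the 12 genes that M1 did not detect. No paired analysis was possible because each group has 1 array, and for that reason no replicate could be left out.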
